A study of Mus musculus with 5 samples.

Results

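In CUT&Tag, an antibody bound to a chromatin protein brings in a transposase, which cuts nearby DNA and adds sequencing adaptors to it. The libraries came from retinas of wild-type (WT) mouse embryos at E16.5, with 4 retinas pooled and dissociated with papain. Rabbit anti-Pou4f1 was used for 2 libraries and rabbit IgG, the negative control, for the other 2. All groups had the same genotype and stage, and 1 further library with rabbit anti-H3K9AC was not analysed here. Pou4f1 (also known as Brn3a) is made in the retina by ganglion cells, whereas the pools held all cells of the retina. A lower signal from fewer Pou4f1 cells and one from less Pou4f1 per cell cannot be told apart.

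The deposited table lists 8038 regions in mm10, each with a signal value in every library. GC-poor coding promoters were the regions shorter than 1500 bp whose midpoint lies within 1 kb of a transcript start of exactly 1 protein-coding gene and whose sequence holds less than 52% G and C. There were 132 of them, at 131 genes, because Slc17a6 held a pair. They made up 3.52% of the 3749 regions that meet the same rule at any GC content. The other 3617, at 52% or more, are called GC-rich coding promoters. The rule itself reads position, length and sequence. The table it was applied to lists regions that the authors called enriched in Pou4f1, with IgG as the control for calling.

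Most mammalian promoters lie in CpG islands, stretches rich in G, C and the dinucleotide CpG that stay unmethylated and serve many broadly used genes. Promoters outside islands are poorer in GC and belong more often to genes used in few tissues. Pou4f1 is a POU domain transcription factor. Its POU-specific domain and POU homeodomain together contact AT-rich DNA, so the sequence it prefers is of a kind that GC-rich promoters hold rarely.

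The POU4 consensus was searched as ATNAATAATT or ATNAATTATT in both orientations (N stands for any letter). It lay in the central 200 bp of 11 members, Abcb8, Erc2, Dytn, Tspan2, B3glct, Zfp35, Sucnr1, Clip1, C530008M17Rik, Arhgap44 and Fat3. Of these 11, 8 lie at internal starts only, over 1 kb from the 5' end of the gene. The 11 regions hold the factor's preferred sequence at their centre, so the sites of 9 are shown with 25 bases to each side. Each is written 5′ to 3′ on the strand of its gene, from GRCm38.p6, with matches in capitals. A longer run of capitals holds overlapping matches.
Erc2 (chr14:27876330-27876392, plus strand): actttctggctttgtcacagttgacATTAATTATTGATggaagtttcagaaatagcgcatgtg
Dytn (chr1:63686950-63687009, minus strand): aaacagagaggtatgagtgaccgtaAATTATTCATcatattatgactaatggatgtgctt
Tspan2 (chr3:102736088-102736147, plus strand): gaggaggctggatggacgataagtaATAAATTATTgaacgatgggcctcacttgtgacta
B3glct (chr5:149753651-149753713, plus strand): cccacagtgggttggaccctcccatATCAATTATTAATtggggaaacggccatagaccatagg
Sucnr1 (chr3:60081772-60081831, plus strand): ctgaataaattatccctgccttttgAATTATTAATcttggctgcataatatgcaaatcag
Clip1 (chr5:123666253-123666312, minus strand): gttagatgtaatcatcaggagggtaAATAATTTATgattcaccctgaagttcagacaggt
C530008M17Rik (chr5:76868767-76868829, plus strand): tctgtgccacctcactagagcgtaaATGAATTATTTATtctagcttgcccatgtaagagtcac
Arhgap44 (chr11:65058956-65059015, minus strand): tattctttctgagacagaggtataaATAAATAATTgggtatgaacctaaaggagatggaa
Fat3 (chr9:16007008-16007067, minus strand): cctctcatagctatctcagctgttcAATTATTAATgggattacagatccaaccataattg
Erc2 encodes a scaffold of the presynaptic active zone, Tspan2 a tetraspanin, B3glct a glucosyltransferase, Sucnr1 the succinate receptor, Clip1 a protein of microtubule plus ends, Arhgap44 a GTPase-activating protein and Fat3 an atypical cadherin. The midpoint of the region lay in an intron at Erc2, Tspan2, B3glct, Clip1, C530008M17Rik, Arhgap44 and Fat3, in a noncoding exon at Dytn and outside the gene at Sucnr1.

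The central 200 bp of 3 members are shown whole, as examples that do not span the range of GC content in the group. Abcb8, a mitochondrial ABC transporter, had the highest mean Pou4f1 signal, and its consensus match spans the midpoint of the region, in an intron. Stmn2, which encodes the neuronal tubulin-binding protein stathmin 2, held no match in its centre, which lies upstream of the gene. Tmem183a had the lowest GC content, 39.1%, and its midpoint lies 732 bp upstream of the nearest start.
Abcb8 (chr5:24394647-24394846, plus strand): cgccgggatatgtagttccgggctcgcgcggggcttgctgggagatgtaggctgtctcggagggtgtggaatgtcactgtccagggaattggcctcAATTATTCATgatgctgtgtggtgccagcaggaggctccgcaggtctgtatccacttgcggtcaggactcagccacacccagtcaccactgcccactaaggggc
Stmn2 (chr3:8509035-8509234, plus strand): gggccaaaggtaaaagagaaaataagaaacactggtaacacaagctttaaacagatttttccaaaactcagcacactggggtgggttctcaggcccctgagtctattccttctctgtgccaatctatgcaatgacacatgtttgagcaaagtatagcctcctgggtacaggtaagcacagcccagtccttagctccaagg
Tmem183a (chr1:134362611-134362810, minus strand): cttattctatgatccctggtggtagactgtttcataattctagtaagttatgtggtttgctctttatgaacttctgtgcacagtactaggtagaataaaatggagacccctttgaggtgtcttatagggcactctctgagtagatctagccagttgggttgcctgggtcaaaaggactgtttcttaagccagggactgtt

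Signal over IgG was the rule among the members, as among all regions of the table, which had been called with IgG as the control. Members had a median signal of 191 in Pou4f1 replicate 1, with a range of 26.5 to 1214. In replicate 2 they had 206, with a range of 0 to 995. In the library named IgG the median was 0 (range 0 to 76.2), and in the library named negative control, taken as the second IgG library, it was 0 (range 0 to 50.1). All Pou4f1 values exceeded all IgG values in 129 of 132 members (97.7%), beside 96.5% of all regions of the table and 99.1% of GC-rich coding promoters. The share of members lay between these values.

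The 3 members where the libraries overlapped all had weak signal. D130043K22Rik measured 81.2 and 17.2 in Pou4f1 against 21.5 and 23.9 in IgG. Eef1e1, at a region of only 24 bp that lies wholly in repeat-masked sequence, measured 45.0 and 10.2 against 76.2 and 0. Pcca, a subunit of propionyl-CoA carboxylase, measured 26.5 and 0 against 30.4 and 0. In no member did both Pou4f1 libraries lie below both IgG libraries.

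With limma on log2(signal + 1) across all 8038 regions, 93 members (70.5%) were higher in Pou4f1 at a Benjamini-Hochberg adjusted p under 0.05, against 64.8% of all regions and 60.0% of GC-rich coding promoters. None was lower, also at an unadjusted p under 0.05, beside 0.224% of all regions lower at the adjusted threshold. All 132 entered the test, as no filter on low values was used. The regions had been called from Pou4f1 signal with IgG as the control, so higher Pou4f1 was favoured in advance. The limma p-values here and below are therefore not independent support for binding. The median log2 difference was 5.80 in members, 4.95 in GC-rich coding promoters and 5.22 over all regions. Calls differed with the IgG values. Of the 40 members at 0 in both IgG libraries all were called, beside 99.7% of all regions of that kind. Of the 32 above 0 in both, 29 were called (90.6%), beside 74.1% of all such regions. Of the 60 at 0 in only 1 of them, 24 were called (40%), beside 39.4% of all such regions. An IgG pair that differs between 0 and a low value has a wide spread on the log scale. The 36 members not called in this last group had higher values in Pou4f1 than in either IgG library, except for Eef1e1 and Pcca. Leaving out 1 library leaves a group of 1, whose spread is then taken from the other group alone. The count was 44 without Pou4f1 replicate 1 and 47 without replicate 2, beside 29.4 and 30.9% of all regions. It was 131 without the library named IgG and 128 without the library named negative control, beside 94.4 and 95.9% of all regions. It was 55, 43 and 40 with IgG scaled up 2-fold, 4-fold or by column totals, where 36.7, 26.8 and 22.7% of all regions were called. Column totals are sums over the 8038 regions, which were called for Pou4f1 signal, and so are not library depths. Scaling by them also takes out Pou4f1 excess that the regions share.

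**Figure D1:**
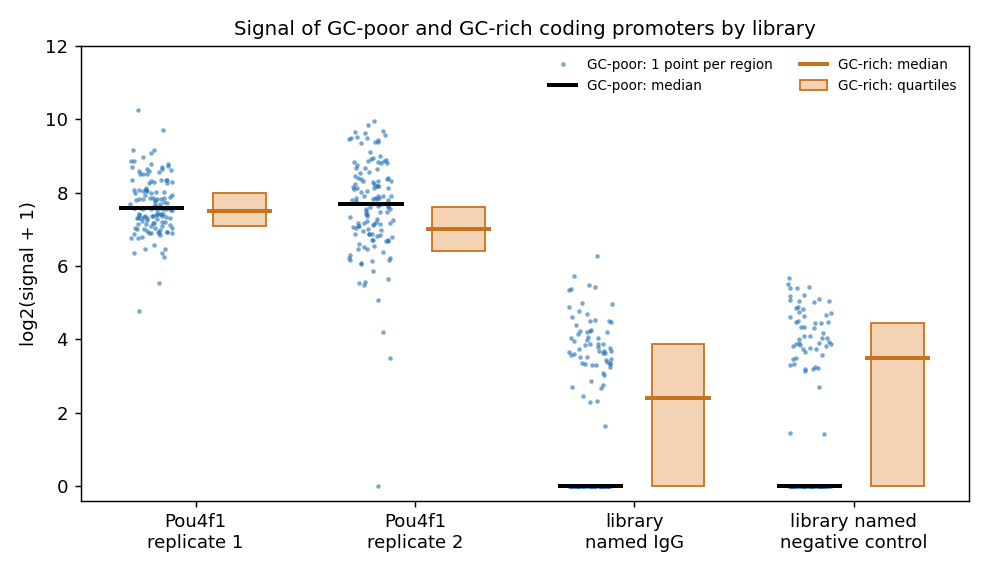
Signal of GC-poor coding promoters (blue points, n = 132, black line at the median) and GC-rich coding promoters (n = 3617, box from the lower to the upper quartile, line at the median) in each library, as log2(signal + 1). The classes lie at like levels in Pou4f1 replicate 1 (medians 191 and 180.4), whereas in replicate 2 the GC-poor class lies higher (206 against 128).

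The highest signals reached several times the median of the group. Abcb8 measured 1214 in Pou4f1 replicate 1 and 995 in replicate 2, and no IgG signal was listed for it in either control. Its log2 difference on the log2(signal + 1) scale was 10.10 ± 0.39 (SE, limma adjusted p = 0.00222). Pdzrn4, which encodes a protein with PDZ and RING finger domains, measured 831 and 821 against 0 and 0. The replicates were nearly equal there, at a noncoding exon, and the region holds no POU4 consensus. Samd11 measured 574 and 911 against 11.7 and 0 (limma adjusted p = 0.0279). Marc2, which encodes a mitochondrial amidoxime-reducing enzyme, measured 545 and 733 against 0 and 0.

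Of the other 4 members among the 8 with the highest mean log2(signal + 1) in Pou4f1, Erc2 passed the test and 3 did not. Erc2 measured 502 and 714 against 0 and 13.6, a log2 difference of 7.29 ± 1.58 (SE, limma adjusted p = 0.0333). Mbnl1, a regulator of splicing, measured 571 and 783 against 0 and 44.4 (limma adjusted p = 0.0679). Inpp1, an inositol polyphosphate phosphatase, measured 461 and 663 against 41.7 and 0 (limma adjusted p = 0.0704). In each of these, and in Hist1h3e described below, the Pou4f1 libraries exceeded both IgG libraries by over 10-fold, while 1 IgG library was at 0 and the other was not.

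Genes of ganglion cells and neurons were present among the members. The list of ganglion cell markers, neurofilaments and neuronal cytoskeleton, with 44 genes in the annotation, held 6 GC-poor regions at 5 genes (Stmn2, Slc17a6, Elavl2, Elavl4 and Dpysl3). Of these 6 regions, 4 were higher in Pou4f1 by limma, against 64.8% of all regions. Across the 6, replicate 1 had a median of 251 and replicate 2 one of 218. The same list held 16 GC-rich regions, of which 11 were higher.

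Stmn2 measured 414 and 396 in Pou4f1 and 0 and 0 in IgG, a log2 difference of 8.66 ± 0.37 (SE, limma adjusted p = 0.00222). Its region covers chr3:8508564-8509706 around the 5' end of the gene, and a POU4 consensus lies in it 99 bp downstream of the nearest start, 324 bp from the midpoint. Slc17a6, which encodes the vesicular glutamate transporter VGLUT2 of ganglion cells, held a pair of regions. The region at its 5' end (chr7:51621489-51622466, GC 51.3%) measured 158 and 114 against 0 and 0 (limma adjusted p = 0.00224). The region at an internal start in an intron (chr7:51629046-51629707, GC 42.7%) was higher, 244 and 446 against 9.21 and 0 (limma adjusted p = 0.0317, or 0.0812 with IgG 2 times shallower). Only the internal region holds the POU4 consensus, shown here with 25 bases to each side.
Slc17a6 (chr7:51629071-51629130, plus strand): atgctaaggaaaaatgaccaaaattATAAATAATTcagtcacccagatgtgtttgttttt
Both regions of Slc17a6 lay above both IgG libraries in each Pou4f1 replicate, but the order of the replicates differed, with replicate 1 higher at the 5' end and replicate 2 higher at the internal start.

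Elavl2 and Elavl4, neuronal RNA-binding proteins of the Hu family, were marked at internal starts in introns. Elavl2 measured 325 and 230.0 against 0 and 24.5 (limma adjusted p = 0.0659), and Elavl4 measured 258 and 206 against 24.8 and 0 (limma adjusted p = 0.0714). Neither passed the test, although all Pou4f1 values exceeded the IgG values. Dpysl3, a regulator of axon growth, measured 111 and 43.4 against 0 and 0 (limma adjusted p = 0.00707).

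Among 49 genes of synaptic vesicles and release, 4 had a GC-poor region and all 4 regions were higher by limma (Erc2, Rab3c and Unc13a among them), against 64.8% of all regions. Rab3c, a vesicle GTPase, measured 167 and 72.9 against 0 and 0. Unc13a, a priming factor of vesicles, had the weakest signal of the list, at 94.8 and 46.4 against 11.48 and 13.7, a log2 difference of 2.31 ± 0.56 (SE, limma adjusted p = 0.0395). With column totals as library sizes its log2 difference was -1.62 and did not pass the test. Erc2 did not pass with IgG 2 times shallower or with column totals (limma adjusted p = 0.0826 and 0.447). Rab3c and Unc13a were lower in replicate 2 than in replicate 1, and Erc2 was higher. These 3 regions lie at internal starts, over 1 kb from the 5' end of the gene.

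The pattern for adhesion genes matched 153 genes and took 4 GC-poor regions, all higher by limma, against 64.8% of all regions. Cntn1, a cell adhesion molecule of the immunoglobulin superfamily, measured 388 and 403 against 10.8 and 12.6, a log2 difference of 4.96 ± 0.38 (SE, limma adjusted p = 0.00353). Flrt3 and Lrrn3, transmembrane proteins with leucine-rich repeats, measured 232 and 331 against 30.5 and 13.4, and 188 and 288 against 21.2 and 8.25. Lrrc49 entered through its symbol alone and is not an adhesion molecule by that match, and it measured 157 and 218 against 0 and 0. With column totals as library sizes the log2 differences of Cntn1, Lrrn3 and Flrt3 were 1.02, 0.08 and -0.27, and none passed the test (limma adjusted p = 0.235, 0.942 and 0.800). Flrt3 and Lrrn3 also did not pass with IgG 2 times shallower (limma adjusted p = 0.0549 and 0.0523).

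Histone genes made up another group. Of 67 replication-dependent histone genes, 5 had a GC-poor region (Hist1h2af, Hist1h3e, Hist1h4c, Hist1h4d and Hist1h4i), all in the cluster on chromosome 13, and 4 of these were higher by limma, against 64.8% of all regions. With IgG 2 times shallower Hist1h4c, Hist1h4d and Hist1h4i no longer passed (limma adjusted p = 0.111, 0.115 and 0.0968). Across the 5, replicate 1 had a median of 259 and replicate 2 one of 309. Hist1h3e was the strongest, at 465 and 718 against 40.1 and 0 (limma adjusted p = 0.0678), and Hist1h2af measured 259 and 337 against 0 and 0. Replicate 2 was higher than replicate 1 in all 5. Their midpoints lie 105 to 245 bp downstream of the start, in the coding exon, and the central 200 bp held 60.5 to 73.5% GC although the whole regions held 49.1 to 51.4%. These intronless genes thus belong to the GC-poor class through the sequence around a GC-rich gene body. Histone genes have near-identical copies, and the assignment of reads that match several copies is not given in the sources.

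Of 83 cytosolic ribosomal protein genes, Rpl3 and Rpl10 had a GC-poor region, beside 24 genes with a GC-rich one. Rpl3 measured 162 and 123 against 0 and 7.70 (limma adjusted p = 0.0371), and Rpl10 measured 155 and 87.2 against 0 and 36.0 (limma adjusted p = 0.138). Psmd5, a chaperone of proteasome assembly, measured 307 and 287 against 17.4 and 35.1, a log2 difference of 3.53 ± 0.54 (SE, limma adjusted p = 0.0162). Its difference was -0.46 with column totals as library sizes, where it did not pass the test. Lsm6, a component of the U6 small nuclear ribonucleoprotein, measured 310.0 and 276 against 8.50 and 0 (limma adjusted p = 0.0294). Both Psmd5 and Lsm6 hold a POU4 consensus, over 400 bp from the midpoint of the region.

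Among zinc finger genes of the Zfp, Zkscan and Zscan series, 3 of 421 had a GC-poor region. Zfp871 was higher by limma, at 402 and 406 against 9.09 and 0 (limma adjusted p = 0.0273). Zfp35 measured 228 and 241 against 0 and 32.6, and Zfp260 measured 141 and 135 against 14.4 and 0, and neither passed the test. Of 101 chromatin remodeler and histone modifier genes, Hdac9, Chd9 and Smarcal1 had a GC-poor region. The histone deacetylase Hdac9 measured 119 and 264 against 11.45 and 0 (limma adjusted p = 0.0491), the remodeler Chd9 measured 182 and 103 against 13.4 and 16.1 (limma adjusted p = 0.0181), and Smarcal1 measured 146 and 116 against 11.8 and 0 (limma adjusted p = 0.0537). Chd9 had a difference of -0.82 with column totals as library sizes, without passing the test.

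Kif28, a kinesin and the only member of the cell cycle list, measured 308 and 281 against 0 and 13.9 (limma adjusted p = 0.0428). It entered that list through its symbol, which does not make it a cell cycle gene. The membrane trafficking list held Rab3c and Rab27b, and Rab27b measured 151 and 206 against 15.6 and 0 (limma adjusted p = 0.0582). Of 59 genes that mark lens, pigment epithelium, endothelium, blood or microglia, C1qb, a complement component of microglia, had a GC-poor region, at 379 and 762 against 0 and 0 (limma adjusted p = 0.00228). No GC-poor region was found for the lists of retinal transcription factors, voltage-gated ion channels, neurotransmitter receptors, axon guidance, mitochondrial ribosomal proteins, the respiratory chain, ubiquitin ligases, photoreceptors and chemosensory receptors. Of these, the retinal transcription factors held 29 GC-rich regions and the ubiquitin list 89. In all, 32 members fell in any of the 21 lists, and the other 100 in none.

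**Figure D2:**
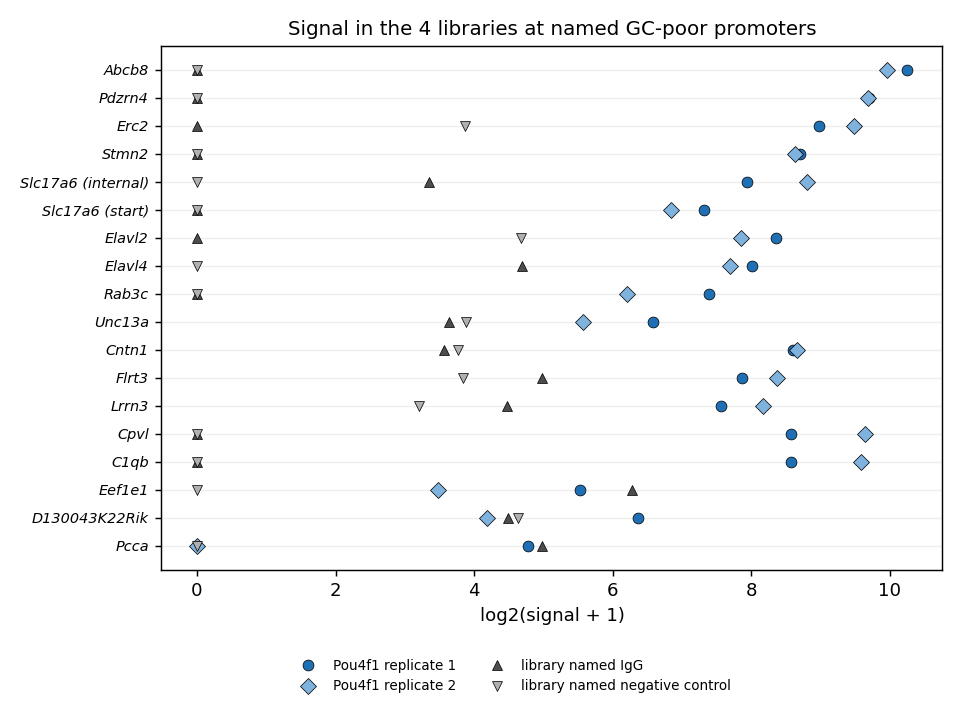
Signal as log2(signal + 1) in the 4 libraries at named GC-poor promoters, with circles for Pou4f1 replicate 1, diamonds for replicate 2 and triangles for the IgG libraries. At Abcb8, Pdzrn4, Stmn2, Cpvl and C1qb both IgG libraries sit at 0, while at Eef1e1, D130043K22Rik and Pcca the Pou4f1 and IgG symbols overlap.

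Members lay at the annotated 5' end of their gene less often than GC-rich promoters, by exact intervals that do not overlap. The midpoint lay within 1 kb of the 5' end of the gene in 67 of 132 members (50.8%, 95% exact binomial interval 41.9 to 59.6%) and in 85.8% of GC-rich coding promoters (84.6 to 86.9%). The other 65 members lie at annotated internal starts. The region covered its nearest start in 75.0% of members and in 93.0% of the GC-rich class. Of the members, 49.2% had their midpoint within 200 bp of that start, against 72.7% of the GC-rich class. A median of 1 annotated start of the gene lay within 1 kb in members and of 3 in the GC-rich class. By annotation at the midpoint, 54 members lay in introns, 33 in noncoding exons, 11 in coding exons and 34 outside the gene.

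How many members there are depends on which starts are counted. With starts of protein-coding transcripts only, 104 members remained, and with starts tagged basic in the annotation 90 remained. The label promoter thus rests, for part of the group, on alternative or noncoding transcripts of a coding gene, and no measure of transcription was part of these data. At the limits of the rule, Rgs12 (GC 51.99%) and D130043K22Rik (51.94%) lay just inside and a region of Samd11 (52%) and Nemf (52.05%) just outside. For length, Calhm5 (1461 bp) lay just inside and Hist1h2bb (1533 bp) and Baz2b (1547 bp) just outside.

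**Figure D3:**
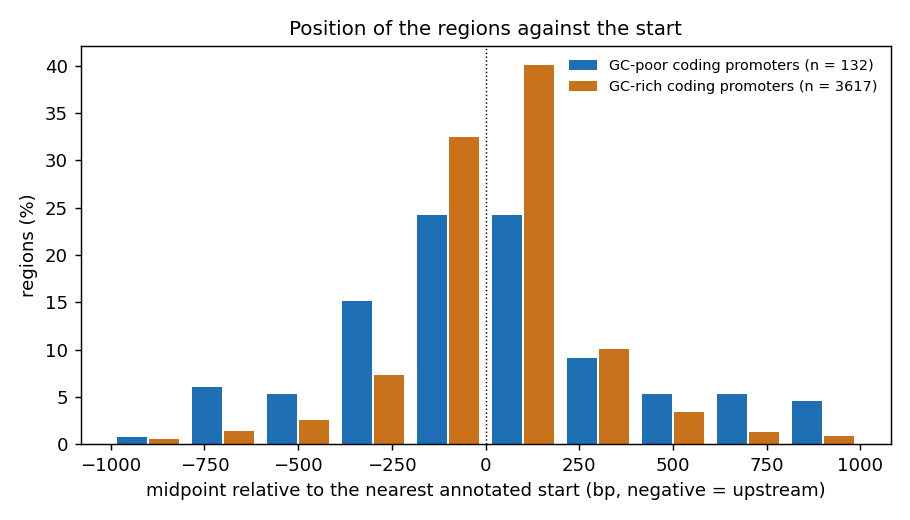
Position of the region's midpoint against its nearest annotated start in bins of 200 bp, as a percentage of each class, with negative values upstream. Bars of GC-rich coding promoters are highest in the bins beside the start (32.5 and 40.1%), whereas GC-poor coding promoters are spread wider, with 24.2% in each of these bins.

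The sequence of the members differed from that of the GC-rich class in ways that go with the rule. The ratio of observed to expected CpG was a median of 0.373 in members and 0.784 in the GC-rich class, and 0.222 in the 1802 GC-poor regions shorter than 1500 bp with no transcript start of any gene within 1 kb. The members lay between the other classes in this measure, which the rule did not use directly but which follows GC content in part. Of the members, 37 held 52% GC or more in their central 500 bp. Length was alike, with a median of 925 bp in members and 969 bp in the GC-rich class. Another region of the table lay within 10 kb in 22% of members, 10.01% of GC-rich promoters and 13.4% of the GC-poor regions away from starts.

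The TATA box, as TATAAA on the gene's strand 40 to 20 bp before the nearest start, was found in 1 member, Taf13, a subunit of the general factor TFIID. That is 0.758% of members (95% exact binomial interval 0.0192 to 4.15%), beside 0.940% of GC-rich coding promoters. Among annotated GC-poor promoters without a region in the table, counted at the 5' end of each coding gene, 4.06% held it (3.65 to 4.51%), and of those with a region 3 of 251 did (1.20%, 0.247 to 3.45%).

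GC-poor promoters were seldom marked at all. Of 21938 coding genes, 8521 had less than 52% GC in the 500 bp to each side of their 5' end, and 251 of these (2.95%, 95% exact binomial interval 2.597 to 3.33%) held the midpoint of a region of the table within 1 kb. Of the 13417 with more GC, 4633 did (34.5%, 33.7 to 35.3%). GC content was read here in a fixed window at the 5' end and not in the region. The 251 are thus a different set from the 132 members, of which 67 lay within 1 kb of a 5' end. The share for GC-poor promoters was 5.65% with the window 250 bp before to 50 bp after the start, 9.31% with 1 kb to each side and 6.74% when any start of the gene could hold the region. In each of these settings it stayed below the share for the GC-rich promoters, which was 33.4 to 37.6%. The POU4 consensus lay in the 200 bp around the 5' end in 5 of the 251 GC-poor promoters with a region (1.99%, 0.650 to 4.59%) and in 55 of the 8270 without one (0.665%, 0.501 to 0.865%), and these intervals overlap. In a 925 bp window the order was the other way, with 4.78% (2.49 to 8.20%) and 5.31% (4.83 to 5.81%), and these overlap too.

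The Pou4f1 replicates differed from each other by class. In replicate 1 the median signal of members was 1.06 times that of GC-rich coding promoters, a log2 ratio of 0.08, and in replicate 2 it was 1.61 times, a log2 ratio of 0.69. In the library named IgG the mean signal was 8.28 in members and 8.50 in the GC-rich class, and in the library named negative control it was 8.88 and 13.6. Most of the excess of members over the GC-rich class was thus in 1 of the 2 Pou4f1 libraries. As mean log2(signal + 1), members exceeded the GC-rich class by 0.09 and 0.60 in Pou4f1 and lay 0.11 and 0.73 below it in IgG. An exact two-sided permutation test of this class difference between Pou4f1 and IgG libraries gave p = 0.33, the smallest value that 4 libraries allow.

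The ratio of replicate 2 to replicate 1 within each region shows the same difference without the level. Its median was 0.996 in members (95% interval of the median from order statistics 0.926 to 1.13) and 0.688 in GC-rich coding promoters (0.679 to 0.699). Replicate 2 was the higher one in 66 of 132 members (50%) and in 549 of 3617 GC-rich promoters (15.2%). With 1 library per replicate, these values compare the libraries and carry no test of a condition. Members without a match to the POU4 consensus had a median ratio of 0.967 and those with one 1.06.

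By GC content, the ratio was lower in all bins above the limit of the rule than in those below it. Coding promoters of 49 to 52% GC had a median ratio of 1.01 (0.820 to 1.18, n = 73) and those of 52 to 55% one of 0.736 (0.679 to 0.831, n = 157), intervals that just overlap. Below 46% it was 1.17 (n = 29), and from 55% upwards it lay between 0.649 and 0.733. In regions away from starts the ratio fell more evenly, from 1.31 below 46% GC through 1.19 at 49 to 52% and 1.09 at 52 to 55% to 0.886 at 55 to 58%. At 49 to 52% GC the coding promoters (1.01) and the regions away from starts (1.19) had intervals that overlap (0.820 to 1.18 and 1.15 to 1.25). Whether this is a property of the libraries or of the samples cannot be told apart with 1 library per replicate.

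**Figure D4:**
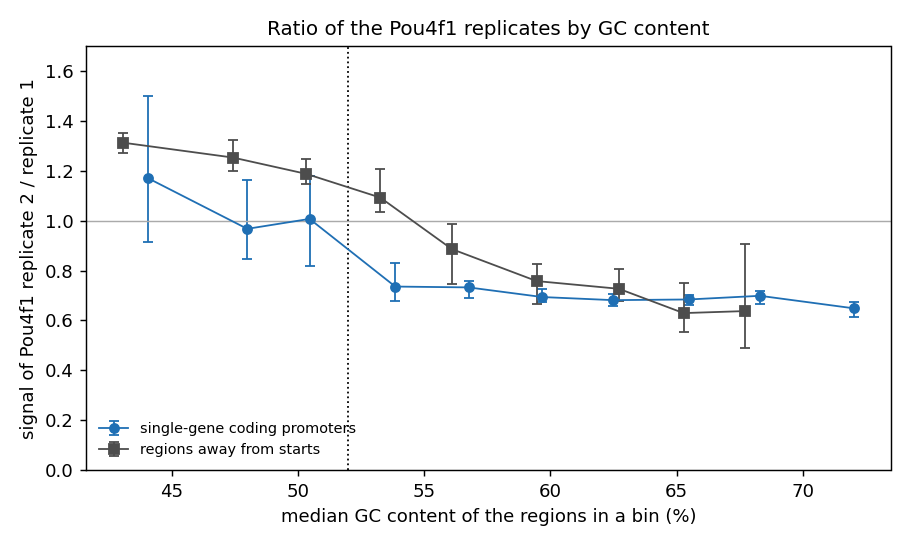
Median ratio of Pou4f1 replicate 2 to replicate 1 against GC content, for single-gene coding promoters (circles) and regions away from starts (squares) in bins of 3 percentage points between an open bin below 46% and one from 70% upwards, with 95% intervals of the median and bins of fewer than 20 regions left out. The dotted line marks the 52% limit, on whose left the promoters lie between 0.967 and 1.17 and on whose right they lie at 0.736 or below.

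Single members spanned a wide range of this ratio. Calhm5, of a family of ion channel proteins, measured 251 and 664 in replicates 1 and 2, Asah1, the acid ceramidase, measured 266 and 693, and Cda, the cytidine deaminase, measured 165 and 465. Replicate 2 was over 2-fold above replicate 1 in 10 members, and Cpvl, a carboxypeptidase, and C1qb, at 381 and 798 and at 379 and 762, were among them. At the other end, Zbtb3 measured 157 and 32.7, and replicate 1 was over 2-fold above replicate 2 in 14 members. Ratios and levels went together, as the 44 members with the highest Pou4f1 signal had a median ratio of 1.34 and the 44 with the lowest one of 0.663. Replicate 2 entered both measures, so this is a description only.

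In signal and replicate ratio, the split by position showed less. The 67 members within 1 kb of the 5' end of the gene had medians of 187 and 175 in the Pou4f1 replicates, and the 65 at internal starts had 197 and 230.0. Their median ratios were 0.926 (0.820 to 1.06) and 1.09 (0.968 to 1.26), with overlapping intervals. For GC-rich promoters at the 5' end and at internal starts the ratios were 0.687 and 0.711, so the lower ratio of the GC-rich class held at both kinds of start.

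The POU4 consensus was found in the central 200 bp of 11 of 132 members (8.33%, 95% exact binomial interval 4.23 to 14.4%), in 8 of 3617 GC-rich coding promoters (0.221%, 0.0955 to 0.435%) and in 266 of 1802 GC-poor regions away from starts (14.8%, 13.2 to 16.48%). Over whole regions the shares were 25%, 1.13% and 33.0%. The consensus was thus present in a minority of members, and 99 of them held none. It lay in the centre of 8 of the 65 members at internal starts (12.3%). Of the 67 within 1 kb of the 5' end, 3 held it there (4.48%). Over whole regions it was in 19 (29.2%) and 14 (20.9%), and this split was not tested. Among all annotated coding promoters, 0.328% held the consensus in the 200 bp around the 5' end.

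Each region was set against its own flanks. At 2 kb toward lower coordinates, 11 members held the consensus in the centre and not in the flank and 0 the reverse (exact binomial test, two-sided, on the discordant pairs, p = 0.000977, Benjamini-Hochberg adjusted p = 0.0195 over 20 tests of 10 motifs and both flanks). At 2 kb toward higher coordinates the counts were 10 and 1 (exact p = 0.0117, adjusted p = 0.0586), so that flank did not pass the threshold. At 5 kb the counts were 11 and 2 (exact p = 0.0225, adjusted p = 0.112) and 11 and 4 (exact p = 0.118, adjusted p = 0.395), and neither passed. The central 200 bp of members had a median GC of 49%, and the flanks had 44.5 and 44.25%, so the AT-rich consensus was more frequent in the less AT-rich window.

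In GC-rich coding promoters the flanks held the consensus more often than the centre, in 33 against 8 regions and in 32 against 8. The GC-rich centres had a median GC of 68.5% and their flanks 44%. The classes were split by GC content, which bears on how often an AT-rich sequence occurs, so no test of this difference is given. Against GC-poor regions away from starts, where the counts were 264 against 17 and 265 against 23, Fisher's exact test on the discordant pairs did not pass the threshold (exact p = 1 and 0.608), which with 11 discordant pairs does not show that the classes are alike.

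**Figure D5:**
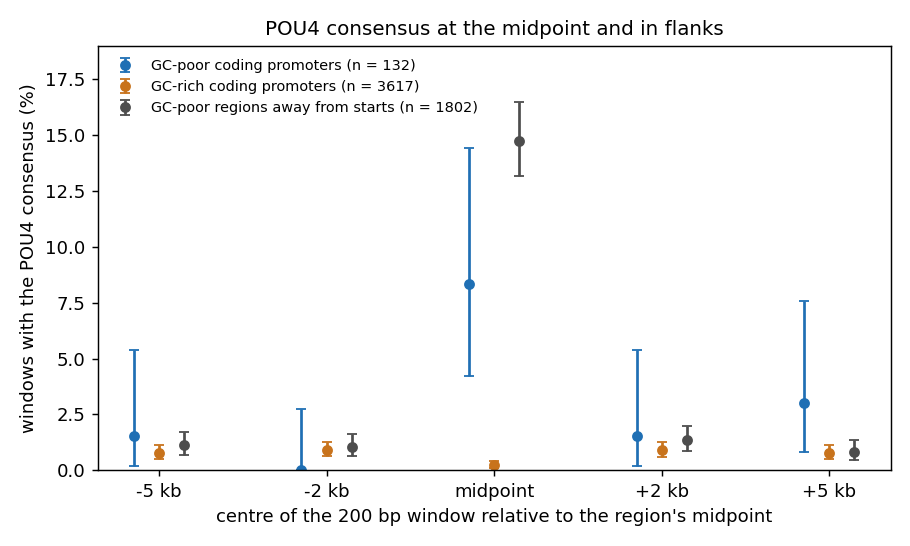
Share of 200 bp windows with the POU4 consensus at the region's midpoint and 2 and 5 kb to each side along the genome, for 3 classes of region, with 95% exact binomial intervals. In GC-poor coding promoters the midpoint has the highest share (8.33%), with an interval that overlaps those of 3 of the 4 flanks, and in GC-poor regions away from starts it has 14.8%. The GC-rich class has 0.221% there.

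Members with the consensus had more Pou4f1 signal on the median. The 33 members with a match anywhere had medians of 269 and 289 in the replicates, and the 99 without one had 170.0 and 175. In IgG their mean signal was 7.75 and 11.7 with a match and 8.46 and 7.93 without. Of the 44 members with the highest Pou4f1 signal 20 held a match anywhere in the region, of the middle 44 it was 9 and of the lowest 44 it was 4. In the central 200 bp alone the counts were closer, at 5, 4 and 2. These are counts over regions of the same libraries and carry no test. The excess was seen in both replicates.

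Values of the 11 members with a central match differed widely. Abcb8 was the highest of all members, and Fat3 measured 80.8 and 126 against 9.83 and 0 (limma adjusted p = 0.0534). Dytn, which encodes dystrotelin, measured 361 and 456 against 17.5 and 20.8 (limma adjusted p = 0.00549), and Tspan2 measured 360.2 and 318 against 12.3 and 21.3 (limma adjusted p = 0.00817). Clip1 measured 214 and 208 against 0 and 0 (limma adjusted p = 0.00222), and B3glct 264 and 289 against 8.92 and 0 (limma adjusted p = 0.0313). C530008M17Rik had the smallest log2 difference of all called members, 2.15 ± 0.38 (SE, limma adjusted p = 0.0218), at 191 and 192 against 43.998 and 41.0. Sucnr1 measured 269 and 180.5 against 0 and 21.2, and Arhgap44 measured 114 and 137 against 0 and 42.3, and neither passed the test. In all, 7 of these 11 were higher by limma (63.6%), near the 64.8% of all regions.

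Further members with the consensus outside the central 200 bp were among the stronger ones. Tnk2, a non-receptor tyrosine kinase, measured 439 and 479 against 0 and 0, Gm19935 397 and 507 against 0 and 0, and Lrrc18 415 and 477 against 0 and 0. All 3 were at 0 in both IgG libraries (limma adjusted p = 0.00222 for each). Their matches lay 142, 232 and 133 bp from the midpoint. Mbnl1 and Marc2, named above, held theirs 189 and 399 bp away.

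Of the other motifs, the GC box (GGGCGG, the site of Sp factors) was more frequent in the centre of members than beside it. It lay in the centre and not the flank in 19 members and the reverse in 4 toward lower coordinates (exact p = 0.00260, adjusted p = 0.0260), and in 18 and 4 toward higher ones (exact p = 0.00434, adjusted p = 0.0290). Its share was 15.2% of central windows in members, 57.0% in GC-rich promoters and 2.77% in GC-poor regions away from starts. The central windows of members had a median GC of 49%, against 44.5 and 44.25% in the flanks. That difference bears on how often a motif of only G and C occurs, and its part in these counts was not tested. The E-box of proneural bHLH factors (CAGCTG or CATCTG) lay in 32.6% of central windows of members, 17% of GC-rich ones and 33.5% of GC-poor regions away from starts. Against the flanks its counts were 33 and 16 and 32 and 15, which did not pass (exact p = 0.0213 and 0.0186, adjusted p = 0.0710 for both). CCAAT, the site of NF-Y, lay in 31.1% of central windows of members and 22.3% of GC-rich ones, with no test past the threshold against the flanks.

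The homeodomain core TAATTA, which can overlap the POU4 consensus, lay in 8 central windows of members and in 7 of each flank, with discordant counts of 8 and 7 and of 7 and 6 (exact p = 1 for both). The octamer ATGCAAAT, the site of POU2 factors, lay in the central window of 1 member (0.758%) and over the whole region in 9 (6.82%). NRF1 (GCATGCGC) and ETS (CCGGAAGT) each lay in 1 central window of members, and CRE (TGACGTCA) and YY1 (AAGATGGC) each in 2. In GC-rich promoters these 4 lay in 2.599, 3.01, 1.08 and 2.49% of central windows. At so few sites a difference between members and flanks was not detectable. The search covered both strands for every motif but the TATA box, and a match is a description of letters only.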

How the data were processed

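Per the labels and the study's text, the authors aligned reads to mm10 with Bowtie2 2.4.5. They called regions with SEACR in its relaxed mode, with rabbit IgG as the control. The deposited values are signal per region in 4 libraries, and the sources do not give their scaling. Signal times length came out as whole multiples of 1 step per library (tolerance 0.05) for 99.975 to 100% of values. The step was 45.0 and 61.2 in Pou4f1 replicates 1 and 2. It was 76.2 in the library named IgG and 88.9 in the library named negative control. The same number of steps thus gives a larger value in IgG than in Pou4f1, but depth is unknown. The column named as a negative control was taken as IgG, and separate animals are not stated for every library, so p-values measure the spread between these libraries only.

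Transcript starts came from GENCODE M21 and sequence from RefSeq GRCm38.p6. All 8038 regions entered limma 3.58.1 (R 4.3.3) on log2(signal + 1), Pou4f1 against IgG, with Benjamini-Hochberg adjustment and a threshold of 0.05. Where IgG is at 0 the log2 difference depends on this pseudocount. Motifs were searched with Python 3.11.15, and intervals (95%, exact binomial) cover counting error only. Both programs were tested on simulated data. Alternatives covered IgG scale, pseudocount, filter, left-out libraries, limits of the rule, windows and flanks. Regions named were the 8 with the highest signal, the 5 of lowest GC, up to 6 per gene list, up to 8 with the POU4 consensus, the 3 highest and 3 lowest replicate ratios and the 2 to each side of each limit. The 11 with a central match, and the 3 where libraries overlapped, were named after their values were seen. The rule for members reads no signal, but members and lists were chosen with earlier results of these data known. A few regions that the naming rule selects are not reported here.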

Additional observations from a re-analysis of the deposited data

How the results depend on the processing

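The count of members higher in Pou4f1 rested on the scale of IgG and on which libraries were used. It was 93 as deposited, 55 and 43 with IgG taken as 2 and 4 times shallower, and 40 with column totals as library sizes, beside 64.8, 36.7, 26.8 and 22.7% of all regions. It was 44 to 131 when 1 library was left out, beside 29.4 to 95.9% of all regions, and the lone library was then assumed to vary like the other group. Column totals sum signal over regions called for Pou4f1 and are not library depths. They lowered the median log2 difference of all regions from 5.22 to 2.74. They also turned the difference of Unc13a (-1.62), Flrt3 (-0.27), Psmd5 (-0.46) and Chd9 (-0.82). D130043K22Rik turned to -3.24 with column totals, to -0.26 and -1.24 with IgG 2 and 4 times shallower, and to -0.38 without Pou4f1 replicate 1, and it was 1.80 without replicate 2. Pcca turned to 2.29 without Pou4f1 replicate 2 and to 2.39 without the library named IgG, and it was -2.58 without the library named negative control. Without the library named negative control 2 members were lower. Over the 52 named regions, 416 values under the alternatives kept direction and side of the threshold, 101 lost the threshold, 45 gained it and 10 changed direction.

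The number of members was 75 with a GC limit of 50%, 215 with 54% and 82 with a length limit of 1000 bp. In Pou4f1 replicate 1 the log2 ratio of the class medians turned to -0.039 with signal multiplied by region length. The ratio of replicates was 1.45 times that of GC-rich promoters in members, and 1.84 times in GC-poor regions away from starts, a class added after seeing the data. The share of members with the POU4 consensus was 8.33% in the central 200 bp and 25% over whole regions. In the central 200 bp it was 14.8% in that added class, and for the octamer it was 0.758% of members. Against flanks at lower coordinates, the counts 11 and 2 at 5 kb (exact p = 0.0225, adjusted p = 0.112) and 1 and 1 for the octamer no longer passed. Against flanks at higher coordinates, 17 and 2 with the central 400 bp, 9 and 0 with a GC limit of 50% and 14 and 2 with 54% passed (exact test, adjusted p = 0.00502, 0.0352 and 0.0209). The share of annotated GC-poor promoters with a region was 5.65, 9.31 and 6.74% with the 2 other windows and with any start. The causes were not tested. No paired analysis was possible because the IgG columns carry no replicate number. Depth is unknown, so a 0 in IgG sets no bound on the fold.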
